A study of Homo sapiens with 13 samples.

Results

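The direction of replication forks was compared between PC9 cells after 7 days of osimertinib and untreated PC9 cells. PC9 is an established human non-small cell lung cancer line that depends on EGFR signalling, and osimertinib blocks mutant EGFR. The comparison takes 5 of the 13 TrAEL-seq libraries of the series, namely 2 titled day 7 and 3 titled day 0, and their groups follow these titles. Day 7 cells had been kept in 500 nM osimertinib dissolved in DMSO, in medium that was renewed every few days. Untreated cells carry that label alone and were taken during normal growth. How far the day 7 cultures were still growing at harvest is not stated in the labels. The other libraries comprise 2 at day 14 and 4 titled day 28, also in 500 nM osimertinib, and 2 of lines grown to resistance and maintained in 500 nM osimertinib. They added to the estimate of the spread between libraries and to the choice of windows with a value throughout, and contrasts with day 14 and day 28 stand beside some results. The labels do not call the replicates independent cultures, and the p-values below reflect only how these libraries spread, which could be technical.

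Replication starts at sites licensed in G1, when ORC and CDC6 load the MCM helicase, and the sites fire in S phase under the kinases CDC7 and CDK2. Forks leave each site in both directions and meet forks from the next one. TrAEL-seq reads mark free 3′ ends of DNA, which in growing cells lie mostly at forks, so the balance of reads between strands follows fork direction. This balance, polarity, runs from -100% to 100%. Where it rises along the chromosome forks diverge (an initiation zone), and where it falls they converge (a termination zone). EGFR signalling drives entry into S phase through kinase cascades and D-type cyclins, and its inhibition is known to arrest PC9 cells mostly in G1.

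The members of the comparison were the 143736 non-overlapping full windows of 20 kb on chromosomes 1 to 22. Of these, 89724 (62.4%) had a value in all 5 libraries and 78282 (54.5%) in all 13. Untreated replicates 1, 2 and 3 had a value in 92.6%, 92.6% and 93.4% of the windows. The day 7 replicates had one in 62.6% and 92.1%. Replicate 1 of day 7 was thin in gene-poor regions above all, with a value in 50.4% of the windows with the fewest gene starts nearby and in 75.5% of those with the most. In that library 6.05% of the windows shared by all libraries stood at exactly -100% or 100%, against 0.135% in day 7 replicate 2 and 0.0396% to 3.33% in the untreated libraries. The table holds no read counts, which leaves the depth of every value unknown, and no counting intervals can be given. Across the 16283 windows of 100 kb the day 7 libraries correlated at a Pearson r of 0.671, and the untreated ones at 0.949 to 0.959. These are descriptions over windows, which are not independent.

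Labels of another pair of libraries bear on the comparison. The treatment field of replicates 3 and 4 titled day 28 gives 7 days. The titles decided their place here, and results were also computed with both at day 7 or without them. Their amplitudes (the depth of the profile, defined below) were 0.452 and 0.333. The amplitude was 0.272 and 0.261 in day 28 replicates 1 and 2, and in the day 7 libraries it was 0.544 and 0.345. With these 2 libraries placed at day 7 the mean day 7 amplitude was 0.419 in place of 0.445.

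After 7 days of osimertinib the alternation of leftward and rightward forks was still laid out as in untreated cells, but it was much shallower. The amplitude of a library is its regression slope against the averaged untreated libraries (always without the library itself), so 1 means a profile as deep as theirs. Untreated replicates 1, 2 and 3 had amplitudes of 0.970, 1.03 and 0.808. Day 7 replicates 1 and 2 had 0.544 and 0.345. Both day 7 libraries lay below every untreated one, and their mean was 47.4% of the untreated mean.

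Initiation zones were called as rises of at least 40 points in untreated pairs and measured in libraries not used to call them. Across them polarity rose by 94.8, 98.3 and 84.1 points in the untreated libraries. It rose by 45.2 points in day 7 replicate 1 and by 27.6 points in replicate 2. The day 7 mean was 36.4 ± 12.4 points (SD, n = 2) against 92.4 ± 7.37 (SD, n = 3), or 39.4% of the untreated rise. Termination zones flattened in parallel, with falls of 85.9, 92.6 and 74.6 points in untreated libraries and 39.9 and 24.5 points at day 7. The groups did not overlap in either kind of zone.

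A measure that needs no reference profile gave the same order. The signal SD is the square root of the covariance of neighbouring windows within a library, to which noise that differs from window to window does not add. It was 48.1, 49.8 and 44.2 points in the untreated libraries and 28.8 and 18.4 points at day 7. The 4 measures, amplitude, rise, fall and signal SD, each gave p = 0.2 for day 7 against untreated cells (exact permutation, two-sided). That is the smallest p that 2 against 3 libraries allow, and it was 0.457 after adjustment over 12 comparisons. With the 2 libraries of conflicting labels at day 7, p in the same test was 0.0571 for each, again the smallest possible. The differences were then -0.519 in amplitude and -57.4 points in the rise against -0.493 and -56.0. TrAEL-seq of a whole culture cannot tell fewer cells with active forks from forks of less uniform direction.

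**Figure D1:**
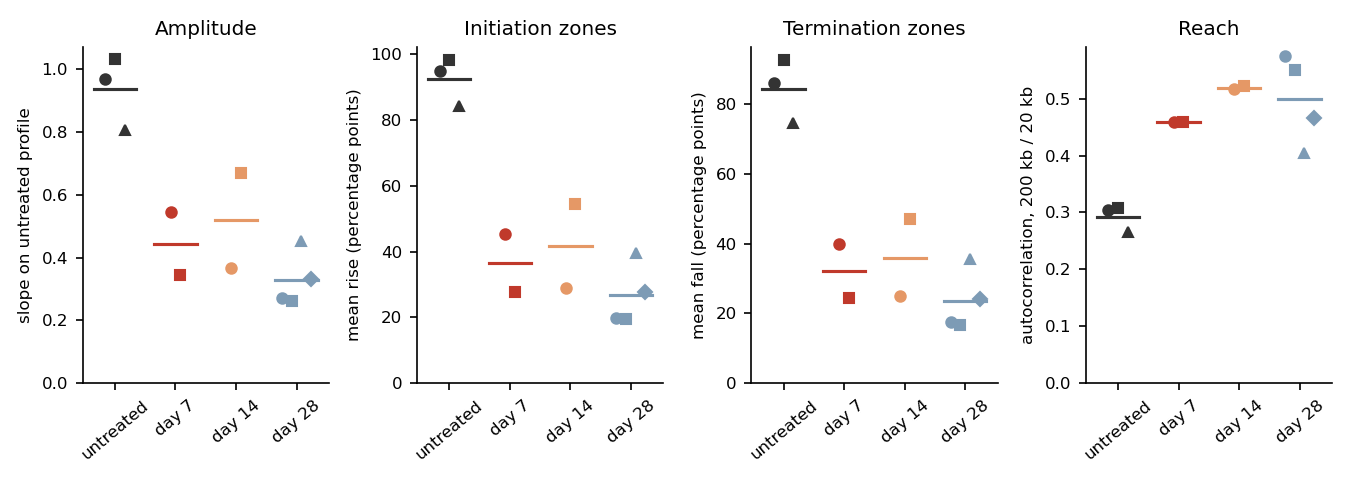
Amplitude, mean rise across initiation zones, mean fall across termination zones and reach (autocorrelation at 200 kb divided by that at 20 kb) of each library; circles, squares, triangles and diamonds are replicates 1 to 4 and bars are group means. In the first 3 panels both day 7 libraries lie below the 3 untreated ones, and in the last panel they lie at 0.459, above the untreated range of 0.266 to 0.307.

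Most untreated zones kept their direction at day 7. Any rise or fall in the untreated direction counted, however small. A flat zone can also pass this through noise, and the share expected of flat zones was not computed. The shares below therefore do not give the number of zones that could be recognised at day 7. Of the initiation zones, 86.5% and 85.1% still rose in day 7 replicates 1 and 2, against 99.3% to 99.6% in untreated libraries. Of the termination zones, 85.2% and 83.9% still fell. Strong zones kept their direction more often than weak ones. Noise of the same size reverses a tall rise less easily than a low one, and its part in this order was not tested. Among initiation zones that rose by more than 120 points in untreated cells, 95.8% and 97.1% still rose at day 7, and among those of up to 60 points 72.1% and 69.1% did. The height kept was 42.3% of the untreated mean in the first class and 33.6% in the second. By width, initiation zones of up to 100 kb kept 36.0% and those over 200 kb kept 43.2%. Termination zones kept 36.3%, 35.1%, 37.4% and 41.2% from the narrowest to the widest class, and 38.1%, 35.7%, 37.5% and 41.0% from the weakest to the strongest, with no steady order. These classes were set on untreated libraries other than the one measured.

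Zones called afresh on the mean of the day 7 libraries numbered 1855 for initiation and 1432 for termination, against 3402 and 2943 on the mean of the untreated ones. Of the day 7 initiation zones, 71.6% overlapped an untreated one, and 38.8% of the untreated zones overlapped a day 7 one. Overlap of 2 stretches is easier to reach than a single point inside a zone. The zero crossing lay inside an untreated zone for 65.2% of the day 7 initiation zones, where untreated zones covered 17.1% of the windows. For termination zones the overlap shares were 57.5% and 27.3%. Their zero crossing lay inside an untreated zone in 51.3%, with 18.5% of the windows covered. Zones were called by a minimum height in points, while the mean day 7 rise and fall were 39.4% and 38.1% of the untreated ones. Day 7 replicate 1 also had a value in only 62.6% of the windows. The lower counts and the shares of untreated zones overlapped are therefore no measure of zones lost. How far height and coverage lowered them was not tested. Neighbouring windows shared 36.8% and 34.5% of the variance in the day 7 libraries and 83.0% to 93.8% in the untreated ones, and the part of this in the counts was not tested.

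Among windows with a value in all 13 libraries, loss of depth was similar between chromosomes and between classes of gene density. Initiation zones differed more, by height and width as given above. By chromosome, the day 7 amplitude was 44.5% (chromosome 13) to 49.8% (chromosome 8) of the untreated one. In the classes of windows with the fewest, middle and most gene starts nearby, it was 0.554, 0.551 and 0.528 in day 7 replicate 1 and 0.344, 0.343 and 0.349 in replicate 2. Windows with an untreated polarity of -100% to -75% averaged -46.4% and -30.0% in the day 7 libraries, and those of 75% to 100% averaged 47.0% and 30.3%. Day 7 polarity was 46.4% to 51.8% of the untreated level in every class of 25 points, so that strongly and weakly polar windows flattened in proportion.

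**Figure D2:**
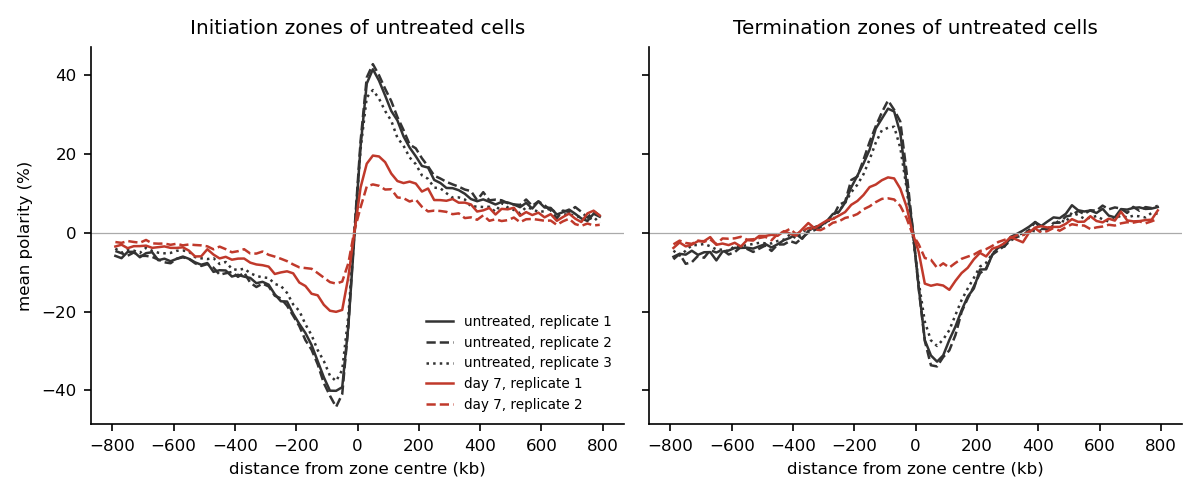
Mean polarity (%) by distance (kb) from the centres of untreated initiation and termination zones, in the 3 untreated and 2 day 7 libraries, each measured on zones called without it. Day 7 curves cross 0 at the same place as the untreated ones and reach a lower height on both sides.

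The part of the day 7 profile that neighbouring windows shared decayed more slowly with distance than in untreated cells, although it was smaller. The autocorrelation of polarity between windows 20 kb apart was 0.844, 0.816 and 0.910 in the untreated libraries and 0.376 and 0.360 at day 7. Reach, the autocorrelation at 200 kb divided by that at 20 kb, was 0.304, 0.307 and 0.266 in the untreated libraries. It was 0.459 in both day 7 libraries, 0.518 and 0.521 at day 14, and 0.575, 0.550, 0.404 and 0.466 in day 28 replicates 1 to 4. Every day 7, day 14 and day 28 library lay above every untreated one. The 2 day 7 libraries, which differ in coverage and amplitude, were alike in reach. They were also close in the variance that neighbouring windows shared (36.8% and 34.5%). Day 28 replicate 3, where this share was 80.4%, had the lowest reach of the day 7, day 14 and day 28 libraries. Whether reach follows this share was not tested. At 500 kb the ratio was -0.0293, -0.0211 and -0.0409 in untreated libraries and 0.0316 and 0.0462 at day 7. Reach was chosen after the data were seen, and its difference of 0.167 between day 7 and untreated had p = 0.2 in the exact permutation test, the smallest possible. Its p for day 7 against day 14 was 0.333, again the smallest possible, and 0.533 against day 28.

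The same was seen beside the zones themselves. At 90 kb from the centre of an initiation zone the mean height (right side minus left side, divided by 2) was 37.5, 39.0 and 33.6 points in untreated libraries and 18.9 and 11.8 at day 7. At 290 kb it was 12.3, 13.3 and 10.8 points untreated and 8.36 and 5.46 at day 7. Height at day 7 was thus 41.7% of the untreated mean at 90 kb and 57.1% at 290 kb. In replicate 1 these shares were 51.4% and 69.1%, and in replicate 2 they were 32.0% and 45.1%. Beside termination zones it was 36.3% at 90 kb and 46.9% at 190 kb.

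**Figure D3:**
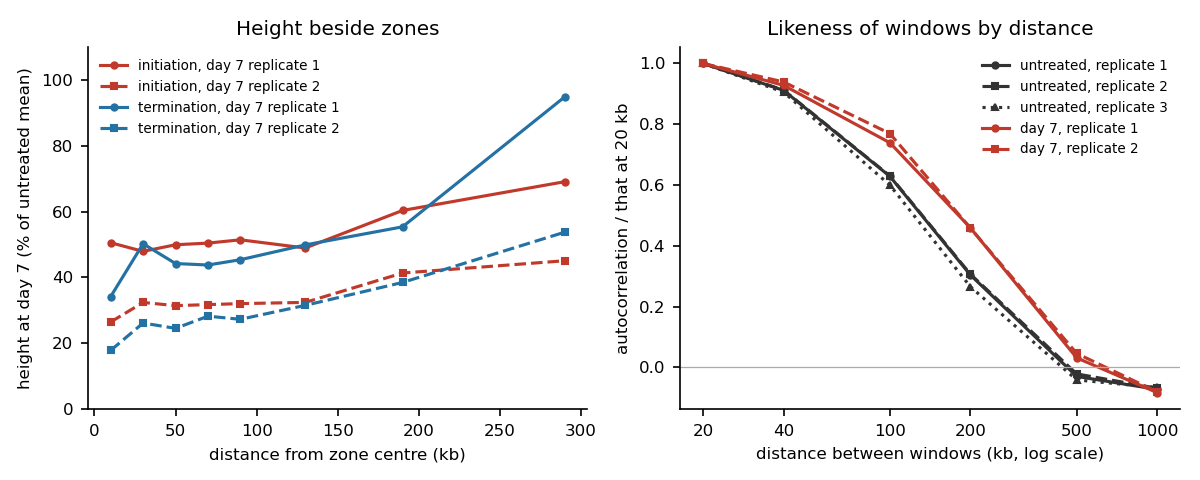
Left, height beside untreated zones in each day 7 library as a percentage of the untreated mean, by distance from the zone centre (kb). Right, autocorrelation of polarity by distance between windows (kb, log axis) relative to that at 20 kb; the day 7 curves lie above the untreated ones at 100 and 200 kb.

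In many human cells initiation zones lie near the starts of active genes, and forks run through long genes in the direction of transcription. Polarity was therefore turned along each gene and averaged over 9717 coding genes with enough windows on both sides of the start. The change from the 100 kb before the start to the 100 kb after it was 17.5, 19.3 and 15.5 points in untreated libraries and 10.1 and 5.74 points at day 7. For the 1521 genes of 100 kb or more it was 20.8, 24.1 and 18.5 points untreated and 12.4 and 5.76 at day 7. The day 7 means were 45.5% and 43.0% of the untreated ones, beside 47.4% for the amplitude over all windows. In the first window inside long genes polarity along transcription was 34.1%, 37.6% and 31.7% untreated and 19.0% and 11.02% at day 7. The groups did not overlap, with an exact permutation p of 0.2 for both gene sets. The share of long genes with forks running along transcription in their first 100 kb was 67.3% and 64.0% at day 7, against 68.2% to 70.4% untreated.

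**Figure D4:**
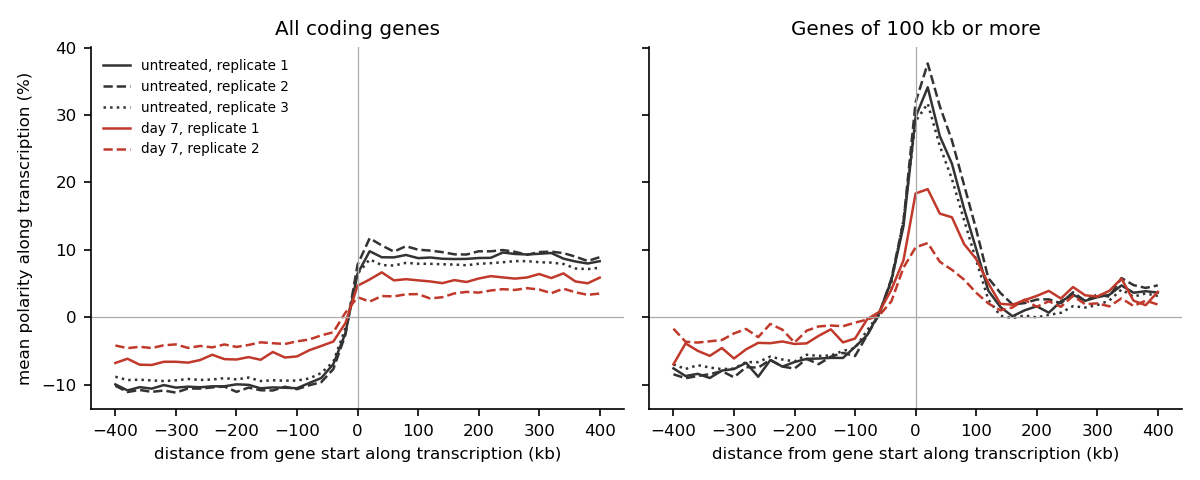
Mean polarity along the direction of transcription (%) by distance (kb) from gene starts, for all coding genes and for genes of 100 kb or more, in the 3 untreated and 2 day 7 libraries. Both day 7 curves keep the step at the gene start and lie between the untreated curves and 0 there.

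Single regions were then tested with limma on the polarity of 100 kb windows, in 1 fit over all 13 libraries. At day 7, 3282 of 16283 windows (20.2%) changed at a Benjamini-Hochberg adjusted p under 0.05, of which 1661 (10.2%) became more positive and 1621 (9.96%) more negative. Of the called windows 3261 moved toward 0 or past it, or 99.4%, against 83.6% of all windows tested. Median absolute polarity of the called windows was 63.8% in untreated cells, 20.1% at day 7, and 30.8% and 19.4% at days 14 and 28. Over all windows it was 33.5% untreated and 19.0% at day 7. The share called grew with untreated polarity, from 3.50% of windows within 25 points of 0 to 53.5% of those beyond 75 points. In 3253 called windows both day 7 libraries lay outside the range of the untreated ones, as they did in 54.1% of all windows. Without untreated replicate 1 or 2 the count was 841 or 662, and without day 7 replicate 1 or 2 it was 2092 or 1193. With the 2 libraries of conflicting labels at day 7 it was 5967. Against the same untreated libraries, 1850 windows (11.4%) were called at day 14 and 7488 (46%) at day 28, where there are 4 libraries.

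The windows described among the largest increases, all of them leftward in untreated cells, lay in genes of varied function. One was at CD5L and FCRL1, which encode a macrophage protein and a receptor of B cells (chromosome 1, 157800001 to 157900000, GRCh38). Polarity there was -74.0%, -82.9% and -66.2% in the untreated libraries and 25.7% and 1.41% at day 7 (difference 87.9 ± 14.0 points, SE; limma adjusted p = 0.00124). The day 7 libraries lay on the other side of 0 from all untreated ones. At day 14 the mean was 6.99%. In MLLT3, a reader of acylated histones (chromosome 9, 20500001 to 20600000), polarity was -84.6%, -82.5% and -74.6% untreated and 14.3% and -7.26% at day 7. GBE1, the glycogen branching enzyme, went from a mean of -84.2% to 0.177%. MGAT5, which branches N-glycans, and the neighbouring TMEM163 went from -79.1% to -2.12%. Means at F11R and ITLN2 went from -85.0% to 2.43%, at RANBP17 from -69.3% to 9.89% and at TMPRSS11B from -82.2% to -4.42%. The day 7 libraries disagreed in sign at GBE1 (-6.67% and 7.02%), F11R (32.1% and -27.3%), RANBP17 (32.3% and -12.5%) and TMPRSS11B (12.6% and -21.4%).

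Among the largest decreases, rightward forks gave way to values near or below 0. FLI1, an ETS transcription factor (chromosome 11, 128600001 to 128700000), had 56.2%, 84.0% and 54.8% in the untreated libraries and -17.5% and -23.3% at day 7 (difference -85.4 ± 12.0 points, SE; limma adjusted p = 0.000245). GAB2, an adaptor that carries signals from receptor tyrosine kinases (chromosome 11, 78300001 to 78400000), had 69.3%, 68.3% and 69.2% untreated and -25.4% and -4.91% at day 7. In PARG, which removes poly(ADP-ribose) (chromosome 10, 49800001 to 49900000), polarity was 70.8%, 82.6% and 62.5% untreated and -15.2% and -10.6% at day 7. BMP7, a growth factor (chromosome 20, 57100001 to 57200000), had 52.8%, 43.9% and 51.1% untreated and -46.7% and -16.9% at day 7. In FLI1, GAB2, PARG and BMP7 both day 7 libraries had turned to the other sign. So they had at BPGM (-12.0% and -8.55%) and at GTF3C1 and IL21R (-9.82% and -12.1%). Means at BPGM went from 70.8% to -10.3%, at GTF3C1 and IL21R from 70.1% to -10.9%, at TDRD3 from 88.6% to 7.63%, and 22595 bp from TMEM18 from 69.8% to -11.8%. Near TMEM18 the day 7 libraries disagreed in sign (-31.7% and 8.16%). These 15 windows were picked for their size, and each was called under every alternative that gave it a value, with adjusted p up to 0.0376.

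Turned signs were rare over the genome. Of 8883 windows of 100 kb with an untreated mean at least 30 points from 0 and the same sign in all untreated libraries, 164 (1.85%) had the opposite sign in both day 7 libraries. In 7565 (85.2%) both day 7 libraries kept the sign. Single day 7 libraries had the opposite sign in 7.70% and 8.77% of these windows. Of the 164 windows, 54 also had an opposite mean at day 14 and 42 at day 28. The share of all 8883 windows with an opposite mean on those days was not computed. These counts therefore do not show whether turned signs lasted. Both day 14 libraries were opposite in 139 windows (1.56%), measured against the same untreated libraries.

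After each library was divided by its amplitude, 0 of 16283 windows (0%) changed in limma, with 896 at an unadjusted p under 0.05. A fit of the untreated and day 7 libraries alone also called 0, with 3248 at an unadjusted p under 0.05. Dividing by an amplitude below 1 also enlarges the noise of a library. When limma weighted libraries by their estimated precision (array weights), 2 windows were called. What the scaled test can detect was not simulated. Before scaling, shifts of 60 points were recovered in 73 of 100 simulated windows of 100 kb and shifts of 30 points in 7 of 100 (16635 windows, X included). Among simulated windows of 20 kb, 0 of 100 were recovered at either size. The simulated shifts were put only on windows of weak untreated polarity, whereas most called windows had a strong one. At 20 kb, 856 of 78282 windows (1.09%) were called before scaling, 446 (0.57%) upward and 410 (0.524%) downward, and 853 of them moved toward or past 0. The count was 0 in limma when any one of the untreated libraries was left out (10971 to 14056 at an unadjusted p under 0.05), 45 without day 7 replicate 1 and 3016 without day 7 replicate 2.

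Day 7 was also set against the later days directly, in the same fit, whose spread and choice of windows the untreated libraries share. Against day 14, 18 of 16283 windows (0.111%) differed in limma, and against day 28, 0 (0%), with 1362 at an unadjusted p under 0.05. In 16 of the 18 windows day 7 and day 14 had opposite signs. Day 7 had the sign of the untreated mean in 7 of them and day 14 in 11. One lies in GRIA2, a glutamate receptor subunit (chromosome 4, 157200001 to 157300000), with 18.5%, 15.0% and 10.6% untreated, 36.5% and 44.4% at day 7 and -30.3% and -30.5% at day 14 (adjusted p = 0.00971). The window at TNFRSF12A, IL32 and CLDN6 among others (chromosome 16, 3000001 to 3100000), had 21.6%, 24.8% and 18.6% untreated, -21.6% and -15.8% at day 7 and 36.7% and 48.4% at day 14 (adjusted p = 0.0240). Without day 7 replicate 1 no window differed from day 14 in limma (1367 at an unadjusted p under 0.05), and without replicate 2, 103 did. Without day 7 replicate 2, 129 windows differed from day 28.

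Genes were tested by the rise of polarity across them, the mean of the 100 kb to the right minus that of the 100 kb to the left. A positive rise means that forks run more to the right on the right side than on the left, as where they diverge, and a negative one the opposite, as where they converge. At day 7, 2272 of 12169 genes (18.7%) changed in limma at an adjusted p under 0.05, 1608 (13.2%) downward and 664 (5.46%) upward, and 2262 of them moved toward or past 0. In 52.7% of all genes both day 7 libraries lay outside the untreated range. Against the same untreated libraries 13.6% of genes were called at day 14 and 39.5% at day 28. Median absolute rise over all genes tested was 35.4 points untreated and 18.3 at day 7. The count was 814 or 705 without untreated replicate 1 or 2, and 1036 or 1156 without day 7 replicate 1 or 2. With flanks of 60 kb, tried after the data were seen, it was 870 of 11560.

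Among the drug target and the kinases that can bypass it, 2 of 19 measured members were called (10.5%), EGFR and ROS1, both downward. EGFR (chromosome 7, 55019017 to 55211628) had rises in untreated cells of 78.3, 91.6 and 64.0 points. At day 7 they were 31.6 and 23.8 points, below all untreated values (difference -50.3 ± 15.5 points, SE; limma adjusted p = 0.0262). With flanks of 60 kb the difference was -43.6 points and the call was lost (adjusted p = 0.105). ROS1, a receptor tyrosine kinase (chromosome 6, 117287353 to 117425942), went from 116, 126 and 86.3 points to 42.6 and 4.34. ERBB2, the partner of EGFR, had 37.3, 22.7 and 77.5 points untreated and 37.0 and 36.5 at day 7, and the groups overlapped (adjusted p = 0.730). MET, the hepatocyte growth factor receptor, had no value for the rise. The list's median absolute rise was 39.7 points untreated and 20.96 at day 7.

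In the list of G1/S and cell cycle genes 2 of 17 measured members were called (11.8%), both downward. CCNE1 encodes cyclin E, which activates CDK2 at S phase entry (chromosome 19, 29811991 to 29824312). Its rise was 89.3, 107.2 and 89.9 points untreated and 26.4 and -11.6 at day 7 (difference -88.0 ± 17.1 points, SE; limma adjusted p = 0.00282). E2F3, which activates genes needed in S phase (chromosome 6, 20401879 to 20493714), had 108.3, 113.4 and 79.8 points untreated and -8.67 and 31.7 at day 7 (adjusted p = 0.00260). The groups stood far apart in both genes, and both calls held under all 12 alternatives.

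Origin licensing and firing genes had 5 of 15 measured members called (33.3%), 3 downward and 2 upward, all toward 0. The list's median absolute rise in untreated cells was 58.2 points, above the 35.4 of all genes, and 21.4 at day 7. MCM2, a subunit of the replicative helicase (chromosome 3, 127598411 to 127622436), went from 103.9, 92.4 and 74.1 points to 30.2 and 9.68 (adjusted p = 0.00742). ORC2, a subunit of the origin recognition complex (chromosome 2, 200908977 to 200963660), had rises of -58.5, -79.0 and -48.7 points untreated and 30.9 and 7.03 at day 7. Its sign had turned in both day 7 libraries (adjusted p = 0.00384). ORC1, another subunit (chromosome 1, 52372829 to 52409503), had -122, -134 and -104 points untreated and -71.3 and -16.6 at day 7. The kinase CDC7 went from a mean of 58.2 to 14.6 points and the helicase factor GINS2 from 51.6 to 1.84. At GINS2 the day 7 libraries disagreed in sign (-10.7 and 14.4 points).

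Of 15 fork and nucleotide supply genes 3 were called (20%), all downward, close to the share over all genes. PCNA, the sliding clamp, went from a mean of 73.9 to 22.6 points, the polymerase gene POLE from 91.0 to 30.05 and the topoisomerase TOP1 from 91.9 to 29.5. The list's median absolute rise was 21.6 points untreated and 19.5 at day 7. Of 11 DNA damage response genes 2 were called (18.2%), among them the kinase ATM, which went from a mean of -64.3 to -0.0692 points. Its day 7 libraries disagreed in sign (-19.1 and 19.0 points). This list's median absolute rise went from 39.2 to 14.0. Common fragile sites break when replication is slowed and often hold giant genes. Of 6 measured genes of this kind 2 were called (33.3%). DAB1 (chromosome 1, 56994778 to 58546726) went from a mean of -103 to -28.1 points, with -60 and 3.72 in the day 7 libraries. NAALADL2 (chromosome 3, 174440982 to 175810548) had 7.40, 29.8 and -3.24 points untreated and -36.3 and -54.3 at day 7. The flanks of DAB1 and those of NAALADL2 lie over 1 Mb apart.

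Drug tolerance and YAP or mesenchymal genes had 7 of 17 measured members called (41.2%), all downward. Their median absolute rise was 50.2 points untreated, above that of all genes, and 17.7 at day 7. BCL2L1, which encodes the survival protein BCL-XL (chromosome 20, 31664452 to 31723963), had 72.2, 92.8 and 87.2 points untreated and 22.7 and -26.0 at day 7 (adjusted p = 0.00241). TEAD4, the DNA-binding partner of YAP (chromosome 12, 2959397 to 3040676), had 103.7, 111.4 and 115.8 points untreated and 39.3 and 23.9 at day 7 (adjusted p = 0.00816). In both genes the day 7 values lay below all untreated ones. Means went from 93.6 to 34.6 points at CCN1, a YAP target, from 52.8 to 11.9 at FN1, which encodes fibronectin, and from 105 to 36.3 at TGFB2. They went from 91.3 to 29.9 points at the integrin ITGB1 and from 85.2 to 26.3 at the survival gene MCL1. Of 12 epithelial genes, KRT8, a keratin, alone was called (120 to 57.5 points; 8.33%), and of 10 histone genes H1-2 alone (-68.6 to -16.7 points; 10%).

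Calls of list genes depended on single libraries to different degrees. ROS1, MCM2, ATM and TEAD4 lost theirs without day 7 replicate 2. ORC1, POLE, TOP1, DAB1, TGFB2 and MCL1 lost theirs without day 7 replicate 2 or untreated replicate 1 or 2, NAALADL2 without day 7 replicate 2 or untreated replicate 2, and GINS2 without day 7 replicate 1 or untreated replicate 1 or 2. EGFR, PCNA, CCN1, FN1 and ITGB1 lost theirs without either day 7 library or untreated replicate 1 or 2. CDC7, KRT8 and H1-2 lost theirs without any one of the 5. With flanks of 60 kb, only CCNE1, E2F3, TOP1 and TEAD4 of these 24 list genes kept their call. ROS1, GINS2, CCN1, ITGB1 and TGFB2 had no value. The other 15 lost their call, among them ORC2 and BCL2L1 (limma adjusted p = 0.232 and 0.0934). Adjusted p over these alternatives reached 0.114 for EGFR, 0.0568 for ROS1 and 0.466 for PCNA.

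**Figure D5:**
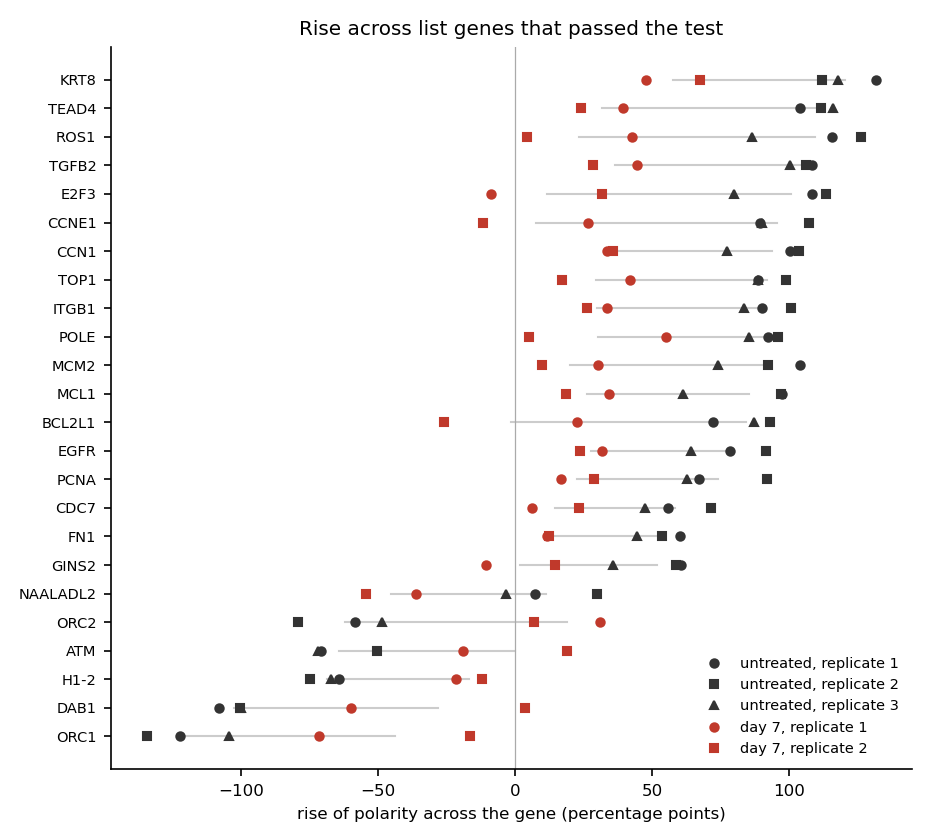
Rise of polarity (percentage points) across 24 list genes called in limma, ordered by the untreated mean; black symbols are the 3 untreated libraries, red symbols the 2 day 7 libraries, and grey lines join the group means. Each gene but NAALADL2 has a day 7 mean nearer to 0 than its untreated mean, and in no gene do the groups overlap.

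By size, the largest changes of the rise were falls at FYB1, YTHDC1, POFUT1 and F2RL1 and increases at SCN8A, DNAJB7, CD300LD and RABGAP1. YTHDC1, a reader of methylated adenosine in RNA (chromosome 4, 68310387 to 68350090), had 164, 161 and 150.1 points untreated and 5.65 and 42.2 at day 7 (adjusted p = 0.000850). POFUT1, which adds fucose to Notch receptors, had a mean of 121 points untreated and -9.45 at day 7, from values of -43.4 and 24.5. F2RL1, a protease-activated receptor, went from 146 to 16.8 points and FYB1, an adaptor of blood cells, from 154 to 14.4. At FYB1 the day 7 libraries disagreed in sign (33.6 and -4.89 points). SCN8A, a sodium channel gene, had -184, -168 and -159 points untreated and kept -68.6 and -56.1 at day 7. The mean went from -90.8 to 12.8 points at CD300LD, from -116 to -8.83 at DNAJB7 and from -90.0 to 8.05 at RABGAP1. Day 7 libraries disagreed in sign at DNAJB7 (9.50 and -27.2 points) and RABGAP1 (24.9 and -8.83 points). SCN8A lost its call without day 7 replicate 1 or 2 or untreated replicate 1 or 2 (adjusted p up to 0.0814).

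Mean polarity over the gene itself was called less often, in 471 of 16005 genes (2.94%), 256 (1.6%) upward and 215 (1.34%) downward. In 48.8% of all genes both day 7 libraries lay outside the untreated range. Shares called at day 14 and day 28 against the same untreated libraries were 1.3% and 28.9%. Among the lists the called members were CCND1, RRM2, PTPRG, ITGB1, H2BC11 and H2AC11. At CCND1, which encodes cyclin D1 (chromosome 11, 69641156 to 69654474), polarity was 8.11%, -36.4% and -31.5% untreated and 66.7% and 36.0% at day 7 (adjusted p = 0.0402). The groups did not overlap, and the value rests on 1 window of 20 kb. RRM2, a subunit of ribonucleotide reductase (chromosome 2, 10122568 to 10211010), had -20.9%, -35.0% and -32.8% untreated and 13.7% and 13.3% at day 7 (adjusted p = 0.0489). ITGB1 (chromosome 10, 32900318 to 32958230) had -77.2%, -86.4% and -88.3% untreated and -17.6% and -21.3% at day 7. The phosphatase gene PTPRG, a fragile site gene, went from a mean of 66.3% to 18.2%. H2BC11 and H2AC11 share 1 window and went from -61.3% to 41.2%. The counts were 0 of 25 for EGFR and bypass kinases, 1 of 23 for cell cycle, 0 of 20 for licensing, 1 of 20 for fork genes and 0 of 15 for damage response. They were 1 of 19 for fragile sites, 1 of 21 for drug tolerance, 0 of 13 for epithelial genes and 2 of 10 for histones.

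EGFR had a mean polarity of 33.5%, 46.5% and 25.0% untreated and 40.6% and 9.60% at day 7. The groups overlapped (adjusted p = 0.615). MET had -60.0%, -30.0% and -60.9% untreated and -60.0% and 66.7% at day 7 (adjusted p = 0.325), and its day 7 libraries disagreed in sign over the 1 window measured. ERBB2 had a mean of 51.8% untreated and 25.6% at day 7 (adjusted p = 0.236). Among the largest increases were TFAP2A, APOBEC3F and DOP1A, and the largest decreases were at WDR76, TRIM43B, BNIP2 and LOC124901228. TFAP2A, a transcription factor of ectoderm (chromosome 6, 10396677 to 10419659), had -77.8%, -100% and -69.7% untreated and 66.7% and 23.1% at day 7, in 1 window. WDR76 went from a mean of 69.8% to -41.9%. It and the other genes named here for their size also rest on 1 window each. Calls in mean polarity were fragile. Their number was 0 without any one of the untreated libraries, without day 7 replicate 1 or without the 2 libraries of conflicting labels (3087 to 4309 at an unadjusted p under 0.05 in limma), and 490 without day 7 replicate 2.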

How the data were processed

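The authors deposited 1 table of strand polarity, a score from -100 to 100 percent per window of 20 kb every 10 kb; that it is the difference of reads on the strands over their sum was read from the values. Per the submitters' processing notes the tools were Bowtie2 2.4.1 and Trim Galore 0.6.5 and the builds GRCm38 and GRCh38; chromosome ends equal those of GRCh38. Neither the number of reads per value nor the strand given the positive sign is stated in the labels or the table. Rises were treated as initiation because they were steeper (over 60 kb, 99.5th percentile 118 points, 0.5th -80.1); with the sign turned, initiation and termination would swap. That choice was made after seeing the data.

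Windows with a value in all 13 libraries were used, averaged to 100 kb where at least 3 of 5 had one. Fits used limma 3.58.1 (lmFit, eBayes with trend, 5 group means, chromosomes 1 to 22 and X; counts are for 1 to 22), Benjamini-Hochberg adjustment at 0.05, in R 4.3.3. A gene's rise needed at least 3 of 5 windows on each side. Genes came from the RefSeq table of GRCh38.p14. Library measures were compared by two-sided exact permutation (scipy 1.17.1). Scripts were tested on simulated data; 38 of 100 genes changed by 60 points in the rise were recovered and 4 of 100 in mean polarity.

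Members and gene lists were chosen with earlier results of these data known. Named genes were the called list members, EGFR, MET and ERBB2, and the largest called changes where both day 7 libraries lay outside the untreated range (8 windows and 4 genes in each direction, at most 1 per 1 Mb). Some items the rule names are not reported here.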

Additional observations from a re-analysis of the deposited data

Results flagged for a closer look

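Day 7 and day 14 differed from each other in 18 windows of 100 kb (limma adjusted p under 0.05), while day 7 and day 28 differed in 0 (1362 at an unadjusted p under 0.05). The windows include those at GRIA2 and TNFRSF12A described above.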

How the results depend on the processing

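Amplitude, zone rise, zone fall, signal SD and reach kept their direction under every alternative run. Leaving out 1 library gave -0.592 to -0.393 in amplitude, -64.7 to -47.2 points in the rise, -59.9 to -44.5 in the fall, -28.9 to -18.6 in signal SD and 0.153 to 0.174 in reach. Counts of limma calls moved far more. Without 1 library they ran from 662 to 2279 windows of 100 kb, 0 to 3016 of 20 kb, 705 to 1711 genes in the rise, 0 to 490 in mean polarity, 0 to 103 windows against day 14 and 0 to 129 against day 28. With the 2 libraries of conflicting labels at day 7 they were 5967 windows of 100 kb, 0 of 20 kb (20031 at an unadjusted p under 0.05), 3682 genes in the rise and 2413 in mean polarity. Without both libraries they were 253 windows of 20 kb and 0 genes in mean polarity (4309 unadjusted). Array weights gave 139 windows of 20 kb, 0 genes in mean polarity (3855 unadjusted), 2 scaled windows and 0 windows against day 14 (516 unadjusted). Untreated and day 7 libraries alone gave 824 genes in mean polarity, the arcsine scale 90 windows of 20 kb, all 5 windows required 2113 of the 6662 windows of 100 kb left to test, and flanks of 60 kb 870 genes in the rise. The causes were not tested.

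Deviations of same-numbered untreated and day 7 libraries from their group means correlated at r = -0.137 and 0.052. With 2 day 7 libraries their deviations mirror each other, so these values cannot tell whether the numbers pair the libraries. With a replicate block, and without the resistant lines, 1293 windows of 100 kb, 1031 genes in the rise, 0 windows of 20 kb (12496 unadjusted) and 0 genes in mean polarity (3316 unadjusted) were called, and ORC1, CDC7, GINS2, PCNA, POLE, TOP1, DAB1, CCN1, FN1, MCL1, KRT8 and H1-2 lost their call in the rise. CDC7 and KRT8 also lost it with array weights or without the libraries of conflicting labels, and H1-2 without the resistant lines. Of uncalled genes the sign turned without day 7 replicate 2 at EGFR and MET in mean polarity, whose ranges without 1 library were -25.4 to 5.603 and -9.71 to 117 points. In the rise it turned at ERBB2 with the block (4.62) or without untreated replicate 3 (range without 1 library -20.7 to 6.74). Reach and the 60 kb flanks were added after seeing the data.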
